A study of Gossypium arboreum with 12 samples.

Results

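The transcripts described here are those of 4 kinds of regulatory protein that stood at a lower level in ovules of a cotton line that forms no long fibres: an Aux/IAA protein, a MYB factor, a basic helix-loop-helix factor and a PLATZ factor. They are 6 of the 21791 transcript probe sets in the deposited table, which are meant by all transcripts below. The study's list of transcripts differing at 10 days post anthesis (dpa) pairs these 6 with *Arabidopsis* loci. The loci are AT4G14550 (IAA14, 2 probe sets), AT3G06490 (MYB108), AT3G25710 (bHLH32) and AT4G17900 (PLATZ, 2 probe sets). Each probe set reads 1 transcript, or a few near-identical ones, with several short oligonucleotides. That list took transcripts at least 3-fold apart between the lines at 10 dpa (1.04% of all transcripts were so much lower in *Fl*), so the 10 dpa difference of these 6 is what chose them. It is given below as a description with no test, and so are the stage differences, which use the same 10 dpa arrays. The difference between the lines at 0 dpa is a contrast of other arrays and was tested, with a spread estimated from all 12 arrays, those of 10 dpa included.

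Whole ovules of diploid cotton, *Gossypium arboreum*, were taken from a fuzzy-linted line (*FL*, the wild type, whose seed carries long lint fibres) and from a fuzzy-lintless line (*Fl*, the mutant ANOI 1960, whose seed carries short fuzz and no lint). Both lines were field grown and were sampled on the day of anthesis (0 dpa), when fibre cells bud from the ovule epidermis, and at 10 dpa, when they elongate. There were 3 biological replicates for each line and stage, 12 arrays in all. By the study's account the lines are near-isogenic and not fully so. Its results report few fibre initials on *Fl* ovules under the electron microscope at 0 dpa, and no elongating fibres at 10 dpa. Its conclusion states instead that initials did not differ, apart from the fuzz. Line, background and the number of fibre cells thus cannot be told apart. One array, *FL* replicate 1 at 10 dpa, is labelled 10 dpa by title but 0 dpa under developmental stage. It was grouped by its title, and across all transcripts its values correlated at 0.914 to 0.915 with the other *FL* arrays of 10 dpa and at -0.565 to -0.555 with those of 0 dpa.

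Aux/IAA proteins hold auxin response factors inactive. Auxin causes their breakdown and so frees the response factors to act, and many Aux/IAA genes are themselves switched on by auxin, which makes a feedback loop. In *Arabidopsis*, IAA14 (SOLITARY-ROOT) restrains lateral root initiation, MYB108 acts in jasmonate-dependent stamen maturation and in stress responses, and AT3G25710, also called TARGET OF MONOPTEROS 5, is switched on by an auxin response factor and drives divisions in the young vascular tissue. PLATZ proteins are plant zinc-dependent proteins that bind A/T-rich DNA. In cotton, auxin is known to promote the initiation of fibres on the ovule. Each name here is the closest *Arabidopsis* homolog of a cotton sequence.

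All 6 probe sets were made against sequences of *G. hirsutum*, a tetraploid relative. Of the 6, 4 end in _s_at and 1 in _x_at, endings that mark probes which can take up signal from close relatives in a gene family, and that of MYB108 ends in a plain _at. The 2 probe sets of IAA14 are told apart below by the start of their identifiers (Ghi or GhiAffx) and those of PLATZ by the end (_s_at or _x_at). A level below is the log2 signal of a probe set relative to its own median over the 12 arrays, as the deposited table gives it, so levels can be compared between arrays for a probe set and not between probe sets. All differences are in log2 units.

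The Ghi probe set of IAA14 stood high in one group and at overlapping levels in the other groups. Its levels were 0.05, -0.18 and -0.11 in *FL* at 0 dpa, 0.06, -0.14 and -0.05 in *Fl* at 0 dpa, 3.29, 3.16 and 3.23 in *FL* at 10 dpa, and -0.21, 0.14 and -0.06 in *Fl* at 10 dpa. The *FL* arrays of 10 dpa stood more than 3 log2 units above the other 9 arrays, whose groups overlapped. At 10 dpa the difference between the lines (*Fl* minus *FL*) was -3.27 (SE 0.095), 9.66-fold and the widest of the 6. From 0 to 10 dpa the level in *FL* was higher by 3.31, which is 9.90-fold, while in *Fl* the difference was -0.01, with a 95% interval of -0.21 to 0.20. In these bulk samples fewer cells of a type and less RNA per cell cannot be told apart, for this transcript or for those that follow.

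The GhiAffx probe set of IAA14 followed another course, in which both lines had a far higher level at 10 dpa than at 0 dpa. Its levels were -1.55, -1.91 and -2.13 in *FL* at 0 dpa, -2.75, -2.28 and -2.40 in *Fl* at 0 dpa, 3.24, 3.41 and 3.29 in *FL* at 10 dpa, and 1.55, 1.75 and 1.79 in *Fl* at 10 dpa. No pair of groups overlapped, and *Fl* lay below *FL* at both stages. The level was higher at 10 dpa than at 0 dpa by 5.18 in *FL* (36.2-fold, rank 32 of 21791 transcripts) and by 4.18 in *Fl* (18.1-fold, rank 33). The line difference at 10 dpa was -1.61 (SE 0.15), or 3.06-fold, the smallest of the 6 and just inside the 3-fold limit of the list. It was -0.23 (SE 0.13) when the centred values were quantile normalized once more, a step that can itself narrow the differences of a group set apart. The nearest transcript outside that limit, which the study's tables do not name, was 2.95-fold lower in *Fl*.

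At 0 dpa the GhiAffx probe set of IAA14 differed between the lines by -0.61 (SE 0.15, 95% interval -0.93 to -0.29, limma adjusted p = 0.0125), which misses the threshold of 0.01 used by the study, although all 3 *Fl* arrays lay below all 3 *FL* arrays. The same order, *Fl* below with no overlap, was found for 19.6% of all transcripts. Without *FL* replicate 3 of 0 dpa the difference was -0.74 with an adjusted p of 0.0067, and its sign turned to 0.12 when the arrays were centred on the hybridization controls instead. The Ghi probe set of IAA14 differed by 0.04 at 0 dpa (SE 0.095, 95% interval -0.17 to 0.25, limma adjusted p = 0.82). Over the 12 arrays the 2 IAA14 probe sets correlated at r = 0.750, a description over points that share their groups.

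MYB108 was again high in *FL* at 10 dpa, and in *Fl* the 10 dpa level was the lowest of the 4 groups. Its levels were 0.07, -0.50 and -0.26 in *FL* at 0 dpa, -0.02, 0.02 and 0.11 in *Fl* at 0 dpa, 1.87, 2.06 and 2.23 in *FL* at 10 dpa, and -0.99, -0.53 and -0.70 in *Fl* at 10 dpa. The *Fl* arrays of 10 dpa lay below every array of the other groups, the nearest being *FL* replicate 2 of 0 dpa. The line difference at 10 dpa was -2.79 (SE 0.15), or 6.92-fold. Against 0 dpa the 10 dpa level was higher by 2.28 in *FL* (4.86-fold), while in *Fl* the difference was -0.77 (1.71-fold lower). At 0 dpa the lines overlapped and differed by 0.26 (SE 0.15, 95% interval -0.06 to 0.59, limma adjusted p = 0.255).

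bHLH32 had the smallest standard error of the 6, and its levels in the lines at 0 dpa were close. Its levels were 0.13, 0.02 and -0.03 in *FL* at 0 dpa, 0.15, -0.02 and -0.02 in *Fl* at 0 dpa, 2.31, 2.24 and 2.27 in *FL* at 10 dpa, and -0.30, -0.16 and -0.18 in *Fl* at 10 dpa. The 0 dpa groups overlapped, the *FL* arrays of 10 dpa stood above them and the *Fl* arrays of 10 dpa below them. At 0 dpa the difference between the lines was -0.0037 (SE 0.071, 95% interval -0.16 to 0.15, limma adjusted p = 0.979). At 10 dpa it was -2.49 (5.60-fold). The stage difference was 2.23 in *FL* (4.71-fold) and -0.25 in *Fl*.

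Both PLATZ probe sets had the lines in opposite order at the 2 stages, with *Fl* above *FL* at 0 dpa and below it at 10 dpa. The levels of the _s_at probe set were -0.33, -0.08 and -0.12 in *FL* at 0 dpa, 0.39, 0.08 and 0.30 in *Fl* at 0 dpa, 2.23, 2.18 and 2.23 in *FL* at 10 dpa, and -0.54, -0.73 and -0.68 in *Fl* at 10 dpa. Those of the _x_at probe set were -0.44, -0.50 and -0.29 in *FL* at 0 dpa, 0.45, 0.29 and 0.42 in *Fl* at 0 dpa, 0.97, 1.09 and 1.28 in *FL* at 10 dpa, and -0.55, -0.66 and -0.52 in *Fl* at 10 dpa. In each the 4 groups fell in the order *FL* at 10 dpa, *Fl* at 0 dpa, *FL* at 0 dpa, *Fl* at 10 dpa, with no overlap between neighbours. *Fl* arrays above *FL* at 0 dpa and below at 10 dpa were found for 3.39% of all transcripts.

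PLATZ was the one name of the 4 with a transcript past the test at 0 dpa. The _x_at probe set was 0.80 higher in *Fl* (1.74-fold, SE 0.088, 95% interval 0.60 to 0.99, limma adjusted p = 9.4e-05), and it was called in each of the 12 fits that left out 1 array, but not in the unpaired test named in the study's methods (adjusted p = 0.0174). The _s_at probe set was 0.44 higher (1.35-fold, SE 0.093, 95% interval 0.23 to 0.64, limma adjusted p = 0.0065). This second call was lost, at adjusted p values of 0.0101 to 0.0332, in 8 of these 12 fits, those without *FL* replicate 1, 2 or 3 of 0 dpa, *Fl* replicate 1 or 3 of 0 dpa, *FL* replicate 1 or 3 of 10 dpa, or *Fl* replicate 3 of 10 dpa. It was also lost on the 6 arrays of 0 dpa alone (adjusted p = 0.0305), with a replicate block (0.0138) and in the unpaired test (0.115). At 10 dpa the difference was -2.86 for _s_at (7.27-fold) and -1.69 for _x_at (3.23-fold).

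**Figure D1:**
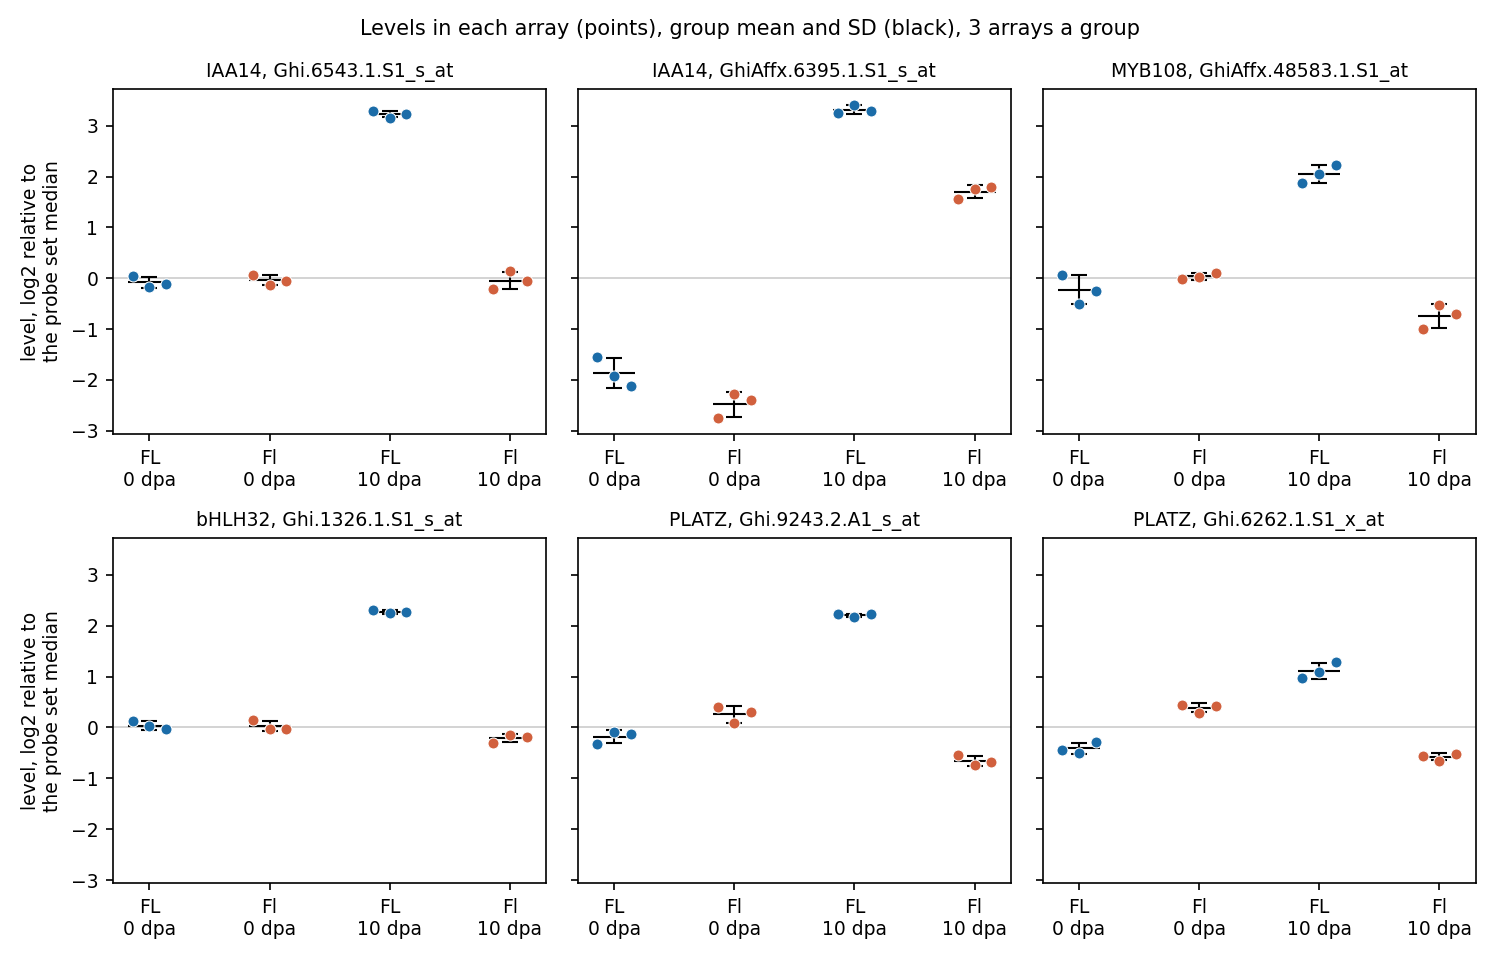
Level of each of the 6 probe sets (log2, relative to the median of that probe set over 12 arrays) in each array of the *FL* (blue) and *Fl* (orange) lines at 0 and 10 dpa, with the mean and SD of 3 arrays in black. The *FL* arrays of 10 dpa stand highest in all 6 panels, and the GhiAffx probe set of IAA14 is the one in which the *Fl* arrays of 10 dpa also stand above both 0 dpa groups.

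At 0 dpa, then, 2 of the 6 probe sets were higher in *Fl* at an adjusted p of 0.01 or less, none was lower and 4 were not called. Of all transcripts 4.95% were called higher and 5.25% lower in *Fl*, 10.2% in all. At an adjusted p of 0.05, 3 of the 6 and 19.7% of all transcripts were called, and the arrays of the lines did not overlap for 3 of the 6 and for 35.6% of all transcripts. None of the 6 was also 3-fold apart at 0 dpa, against 0.381% of all transcripts. At an unadjusted p under 0.05, 3 of the 6 differed in limma and 3 in the unpaired test named in the study's methods. The share of all transcripts at that unadjusted p is not given here, so these counts cannot be set against it. The unpaired test called none of the 6 at an adjusted p of 0.01, and 1.53% of all transcripts. The median difference at 0 dpa was 0.15 over the 6 and -0.02 over all transcripts.

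Some measures of the arrays moved with the line at 0 dpa. The 9 probe sets for hybridization controls, RNAs added in fixed amounts to every sample, had a mean level of 0.425 ± 0.107 (SD, n = 3) on the *FL* arrays of that stage. On the *Fl* arrays it was -0.306 ± 0.022 (SD, n = 3), so the lines differed by -0.73, against -0.14 at 10 dpa. The 3' minus 5' signal of actin and ubiquitin, a sign of RNA integrity, differed by -0.50 between the lines at 0 dpa and by 0.14 at 10 dpa. Their part in the 0 dpa differences was not tested. Centring on the hybridization controls raised the median 0 dpa difference of all transcripts to 0.71, and those of the PLATZ probe sets to 1.17 and 1.53.

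**Figure D2:**
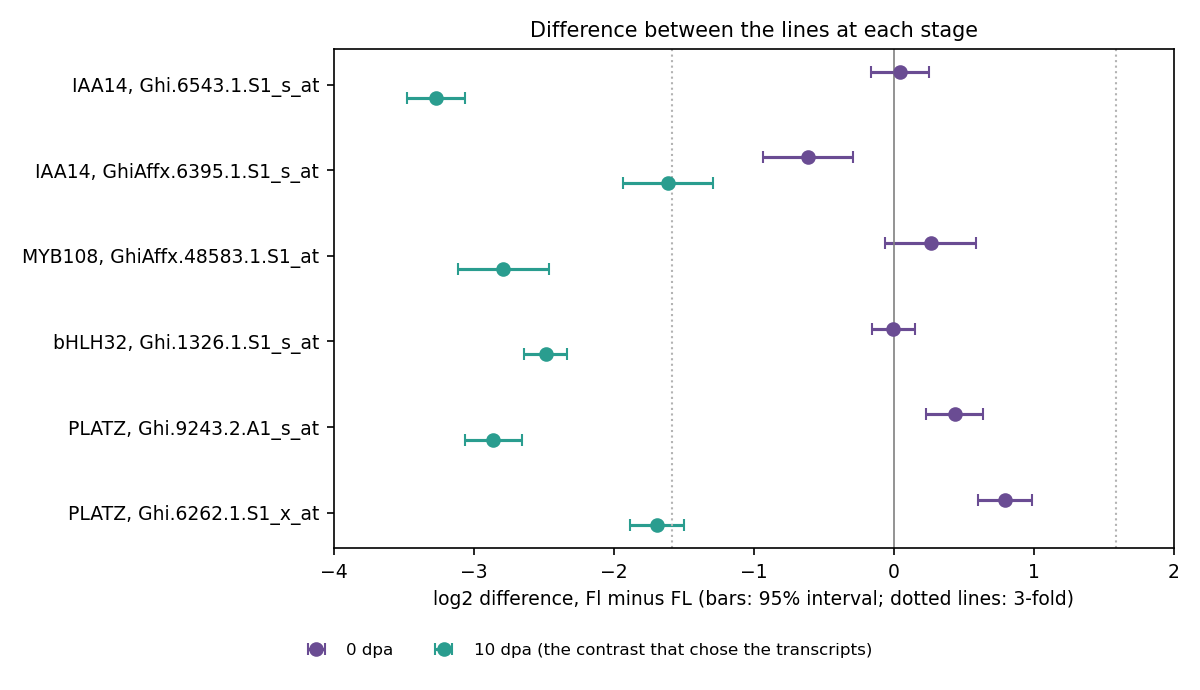
Difference between the lines (*Fl* minus *FL*, log2) for each probe set at 0 dpa (purple) and 10 dpa (green), with 95% intervals from the fit on 12 arrays and dotted lines at a 3-fold difference. At 0 dpa the points lie between -0.61 and 0.80, with both PLATZ intervals above 0, and at 10 dpa between -3.27 and -1.61.

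Within *FL* all 6 probe sets had every 10 dpa array above every 0 dpa array, an order found for 22.9% of all transcripts, and for 2.94% with a 3-fold difference as well, which 5 of the 6 had. Their stage differences ran from 1.52 (PLATZ, _x_at, 2.87-fold) to 5.18 (IAA14, GhiAffx), with a median of 2.33 against -0.07 over all transcripts. Within *Fl*, 4 of the 6 had every 10 dpa array below every 0 dpa array, against 29.2% of all transcripts: MYB108, bHLH32 and both PLATZ probe sets. The stage differences of the PLATZ probe sets in *Fl* were -0.91 (1.88-fold lower at 10 dpa, _s_at) and -0.97 (1.95-fold, _x_at), against 2.39 (5.23-fold higher) and 1.52 in *FL*. These 4 thus had opposite stage orders in the lines, which held for 1.87% of all transcripts. The rule that chose them favours such an order, since it took transcripts that were low in *Fl* and high in *FL* at 10 dpa.

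The mean level of *Fl* ovules at 10 dpa can also be set beside that of *FL* ovules at 0 dpa. It differed by 0.04 for the Ghi probe set of IAA14, by -0.51 for MYB108, by -0.25 for bHLH32, and by -0.47 for PLATZ _s_at and -0.17 for PLATZ _x_at. For the GhiAffx probe set of IAA14 it was 3.57 higher. So 5 of the 6 stood in *Fl* at 10 dpa within 0.04 of, or below, the *FL* level of the day of anthesis.

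**Figure D3:**
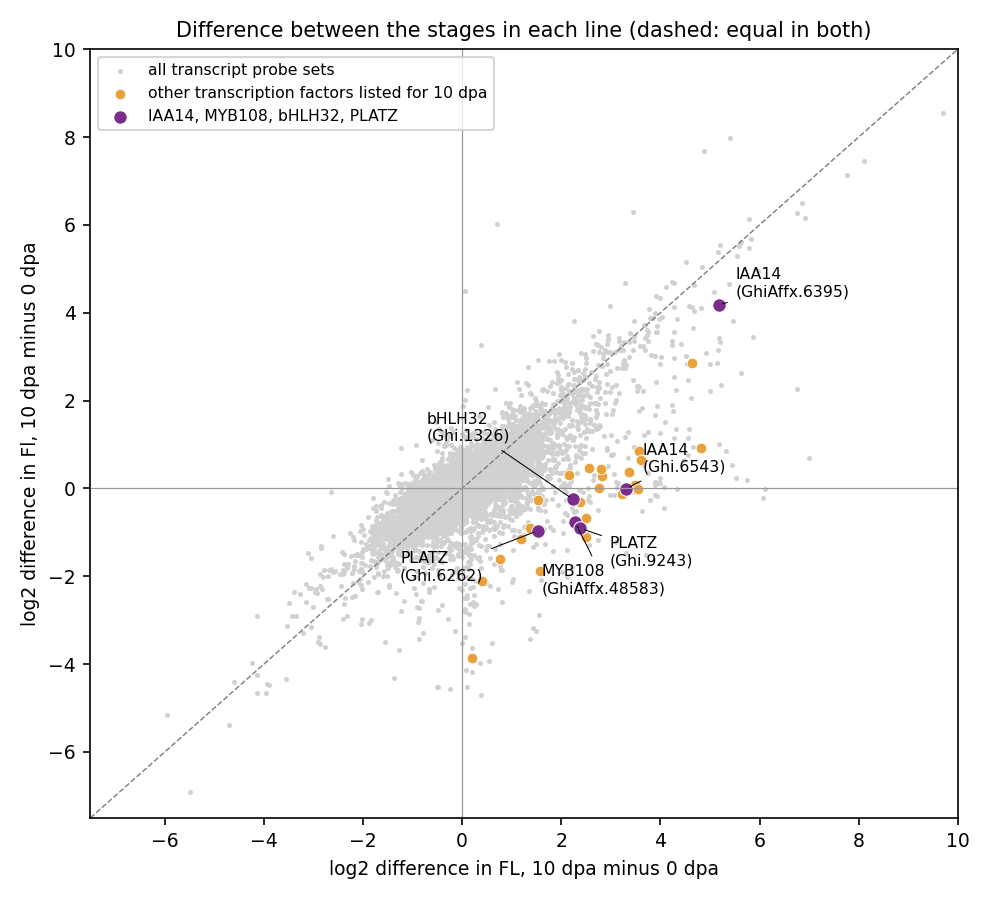
Difference between the stages (10 dpa minus 0 dpa, log2) in *FL* (x axis) and in *Fl* (y axis) for all 21791 transcript probe sets (grey), the 24 other probe sets listed under transcription factor families for 10 dpa (orange) and the 6 probe sets (purple). The GhiAffx probe set of IAA14, at 5.18 and 4.18, lies near the line of equal differences, and the other 5 lie to the right of 0 on the x axis and at or below 0 on the y axis.

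The spread of all values was wider on the 3 *FL* arrays of 10 dpa (SD 0.489 to 0.501) than on the other 9 (0.347 to 0.364). The values are centred on the median of each probe set, so this spread also reflects how far a group lies from the others. A further quantile normalization of these centred values gave all arrays the same spread, and can itself narrow the differences of a group set apart. With it, the 10 dpa line differences of the 5 probe sets other than GhiAffx of IAA14 (given above) were -2.12 to -1.41. *Fl* stayed below *FL* in all 6. Some transcripts of the cytoskeleton and wall were, like the 6, lower in *Fl* than in *FL* at 10 dpa. Taken here as markers of elongating fibres were 5 probe sets: beta-6 tubulin, profilin 5, actin depolymerizing factor 5 and 2 for expansin-like B1. These are proteins of the cytoskeleton and the growing wall. All 5 had lower means in *Fl* at 10 dpa, with differences of -6.20 to -1.69. At 0 dpa none of them was called, against 10.2% of all transcripts. Within *Fl*, 3 of these 5 had every 10 dpa array above every 0 dpa array (23.8% of all transcripts) and 0 had every one below (29.2%). Of the 6, 1 stood above and 4 below. The summed log2 level of the 5 markers was -1.57 to -0.995 in *FL* and -1.69 to -1.36 in *Fl* at 0 dpa. At 10 dpa it was 18.9 to 20.2 in *FL* and -0.02 to 0.78 in *Fl*. The 2 probe sets of expansin-like B1 had the highest *FL* means at 10 dpa (6.01 and 5.77), so 1 name weighs most in this sum. These 5 were picked for this comparison from the study's list of differing transcripts, all of them among those lower in *Fl*. Other wall transcripts of that list ran the other way: FASCICLIN-like arabinogalactan 7, a cell surface protein, differed by 5.68 at 10 dpa (SE 0.11, named after its values were seen), and XTH7 and XTH32 were also higher, with the values below. The values are centred so that absence of a marker cannot be read, and the part of these transcripts in the differences of the 6 was not tested.

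The study listed 24 other probe sets under transcription factor families at 10 dpa, all of them lower in *Fl*. Some of them carry names of other proteins in its list of differing transcripts: mitogen-activated protein kinase 3, MAP kinase kinase 9, a protein kinase (AT5G55560) and an ethylene sensor (AT3G23150). Their median 10 dpa difference was -2.51, with a range of -4.0 to -1.67, and that of the 6 was -2.64. At 0 dpa 5 of the 24 were called higher in *Fl* (4.95% of all transcripts), none was lower and 19 were not called, with a median of -0.02. Their median stage difference was 2.66 in *FL* and -0.01 in *Fl*, where 10 of the 24 had every 10 dpa array below the 0 dpa arrays (29.2% of all transcripts) and 9 had every one above (23.8%). These transcripts were picked by the same contrast as the 6, so the likeness at 10 dpa is set by the choice.

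IAA14 is an auxin gene, and 16 other probe sets were listed under auxin at 10 dpa. Their names here follow the study's list of differing transcripts, and its auxin list pairs some of them with other loci. There the probe set of CYP706A6 is paired with AT4G31500, and the 3 of XTH7 with AT2G06850, the locus of XTH4. That of XTH32 is paired with AT5G57560. At 0 dpa 2 of the 16 were higher in *Fl* (4.95% of all transcripts), 1 was lower (5.25%) and 13 were not called. CYP706A6, a cytochrome P450 (AT4G12320), was higher by 0.83 (SE 0.13, limma adjusted p = 0.0011), and 1 of the 2 probe sets of homeobox protein 40, a homeodomain factor, was higher by 0.44 (SE 0.073, limma adjusted p = 0.0015). The xyloglucan endotransglucosylase XTH4, an enzyme that cuts and rejoins the xyloglucan chains of the wall, was lower, with a difference of -0.79 (SE 0.066, limma adjusted p = 8.9e-06). The 10 dpa difference of XTH4 was -1.73.

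At 10 dpa, the contrast by which they were chosen, 11 of the 16 lay lower in *Fl* and 5 higher. At the study's limits (adjusted p of 0.01, 3-fold), the unpaired test had 215 of all transcripts lower in *Fl* and 15 higher. Among the 16, the lower ones reached -3.35 for AT5G65980, listed under the name auxin efflux carrier family, beside -3.27 for the Ghi probe set of IAA14. The higher ones were 3 probe sets of XTH7 (2.55, 2.79 and 2.81), 1 of XTH32 (1.68) and 1 of a SAUR-like transcript (AT5G20820, 1.71), a family of small auxin-induced RNAs. A further Aux/IAA transcript, that of IAA28 (AT5G25890), was not on the auxin list but was on the study's list of differing transcripts at 10 dpa, and it is named here after its values were seen. Its line difference was -1.83 at 10 dpa (SE 0.11) and -0.50 at 0 dpa (SE 0.11, limma adjusted p = 0.0084), where its sign turned to 0.23 with the arrays centred on hybridization controls. Its stage difference was 1.54 in *FL* and 0.21 in *Fl*. The auxin list of 0 dpa held 4 other probe sets, all higher in *Fl* at that stage, the contrast by which they were chosen, with a median of 2.13 at 0 dpa and of 0.05 at 10 dpa.

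MYB108 was listed under jasmonic acid with 5 other probe sets. At 0 dpa 2 of these 5 were higher in *Fl* (4.95% of all transcripts) and 3 were not called. A NAC factor (AT1G01720) was higher by 0.93 (SE 0.094, limma adjusted p = 4.4e-05). Terpene synthase 21, an enzyme of volatile terpene synthesis, was higher by 2.42 (SE 0.15, limma adjusted p = 6.7e-07). These names follow the study's list of differing transcripts. Its jasmonic acid list pairs the same probe sets with another NAC locus (AT5G08790) and with terpene synthase 10 (AT2G24210). MYB108 itself differed by 0.26 and did not pass. At 10 dpa all 5 lay lower in *Fl*, with a median of -2.86 beside the -2.79 of MYB108. They and MYB108 were picked by this contrast, in a list where most transcripts were lower in *Fl*, so this likeness is set by the choice.

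**Figure D4:**
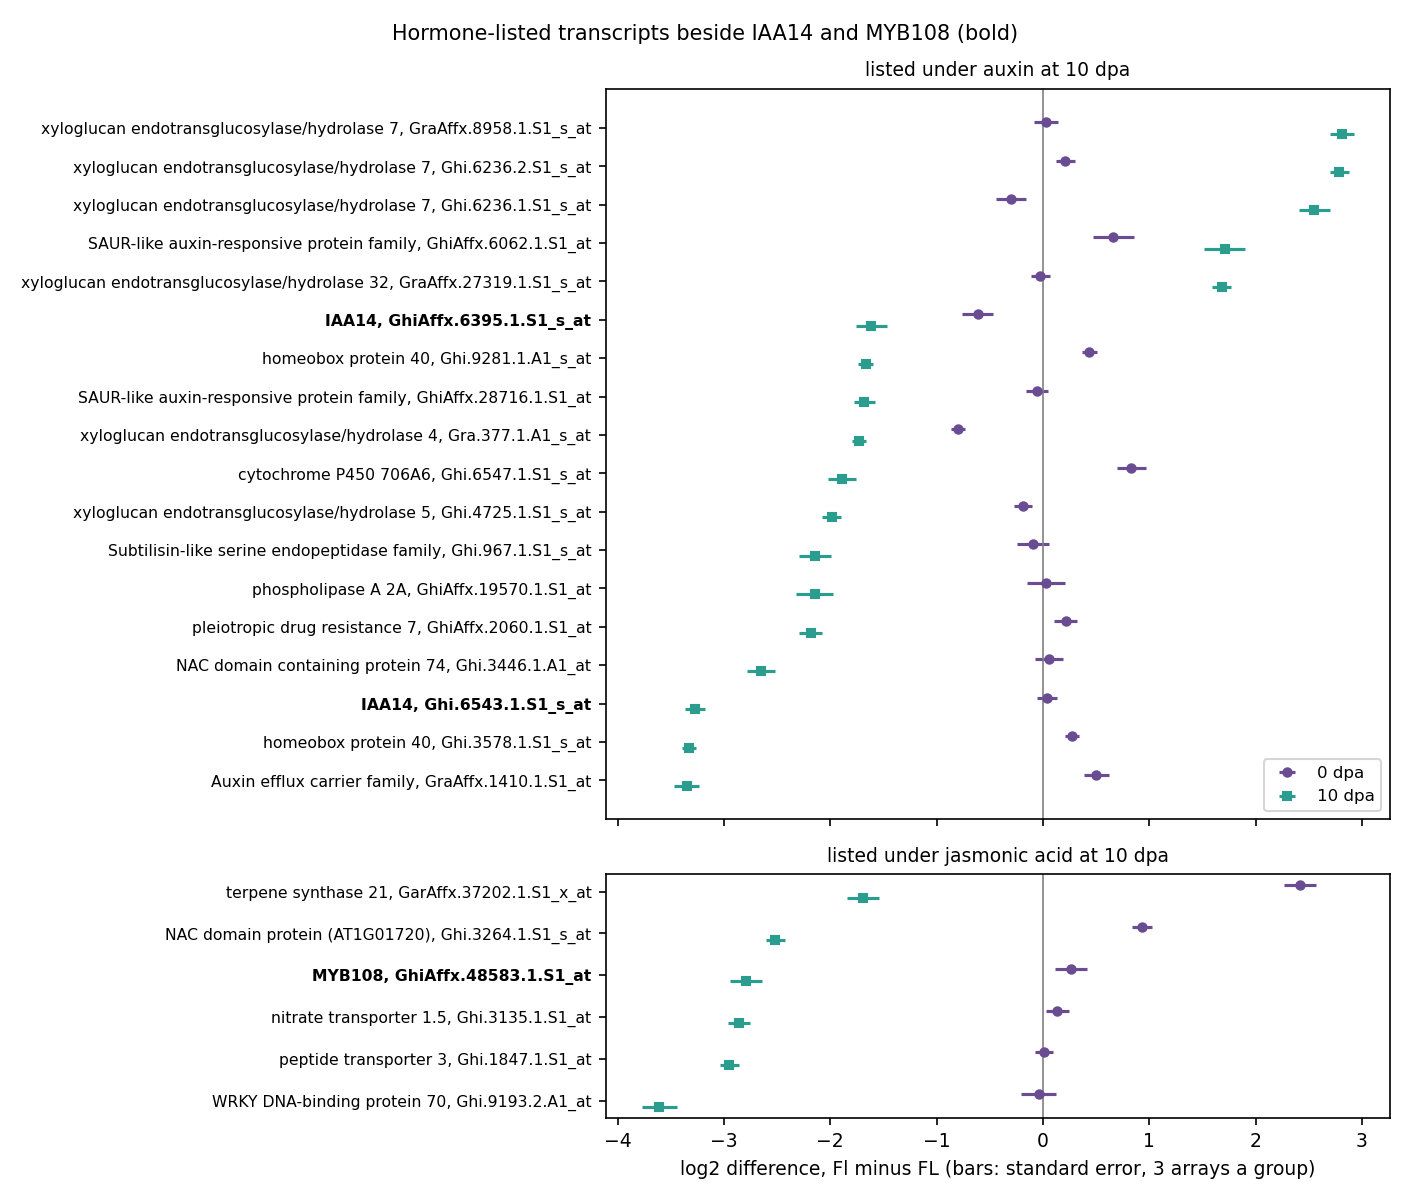
Difference between the lines (*Fl* minus *FL*, log2, bars are standard errors) at 0 dpa (circles) and 10 dpa (squares) for the 18 auxin and 6 jasmonic acid probe sets listed at 10 dpa, with IAA14 and MYB108 in bold. The 10 dpa values reach from -3.35 to 2.81 under auxin and lie between -3.61 and -1.69 under jasmonic acid, and those of IAA14 are -3.27 and -1.61.

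Among all 21791 transcripts, those most like each of the 6 over the 12 arrays were ranked by Pearson's r, as a description over arrays that share their groups. Many transcripts lie close behind the first, and the names at the top changed when the 4 group means were ranked instead. The Ghi probe set of IAA14 ran closest to a galactosyltransferase-like transcript (AT1G30260, r = 0.998), expansin-like B1, a wall protein (r = 0.997), and peptide transporter 3 (AT5G46050, r = 0.996). bHLH32 ran closest to CYP72A14, a cytochrome P450 (r = 0.997), the lysine-degrading enzyme of AT4G33150 (r = 0.996) and peroxidase 2 (r = 0.995), and its r with the Ghi probe set of IAA14 was 0.994, place 4 in its list. Both sets of neighbours have the same form, a high level in *FL* at 10 dpa and little difference among the other groups.

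The GhiAffx probe set of IAA14 had 3 closest transcripts that the study's tables do not name (r = 0.997 to 0.998). Among named ones it was most like MLP-like protein 28 (r = 0.993), glutamate decarboxylase 4, which makes gamma-aminobutyric acid (r = 0.992), and a glycosyl hydrolase family transcript (r = 0.992). MYB108 was most like beta-carotene hydroxylase 2, an enzyme of xanthophyll synthesis (r = 0.991), then, among named transcripts, a late embryogenesis abundant protein (AT1G01470, r = 0.984) and BSAS3, a cysteine synthase family member (r = 0.983).

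The PLATZ probe sets had different neighbours. The _s_at probe set was most like the other probe set of homeobox protein 40 (r = 0.991), whose line difference was -3.33 at 10 dpa and 0.28 at 0 dpa (limma adjusted p = 0.0133). Next among named transcripts came AT2G21620, of the adenine nucleotide alpha hydrolase family (r = 0.987), and AT5G65980, listed as auxin efflux carrier family (r = 0.986). The 0 dpa difference of AT5G65980 was 0.50 (limma adjusted p = 0.0117). The _x_at probe set had as its nearest named transcripts the trehalose phosphate enzyme trehalose-phosphatase/synthase 9 (r = 0.974), regulatory component of ABA receptor 1, an abscisic acid receptor (r = 0.961), and UDP-glucosyl transferase 73C1 (r = 0.957). The 2 PLATZ probe sets correlated with each other at 0.945, and the _s_at probe set correlated with MYB108 at 0.973. The lowest correlation among the 6 was 0.363, between PLATZ _x_at and the GhiAffx probe set of IAA14.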

How the data were processed

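The RNA of 12 ovule samples was hybridized by the authors to the Affymetrix cotton GeneChip. The authors ran RMA (background correction, quantile normalization and median polish) in GeneSpring GX 11.5. They deposited log2 values, 1 column per array, for 21791 transcript and 98 control probe sets. The study gives the array more probe sets than that, and how the others were left out is not stated. Shares of all transcripts are thus shares of the deposited table. The deposited values of each probe set are centred on their median, so brightness, detection above background and a filter on dim probe sets could not be had. Arrays give no read depth, and precision rests on 3 arrays a group.

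The 12 arrays were fitted together in limma 3.58.1 (R 4.3.3) with a mean for each of the 4 groups, and p values were adjusted by Benjamini-Hochberg over all 21791 transcripts. A call is an adjusted p of 0.01 or less, and the study's own lists also asked for 3-fold. Nothing in the labels says that replicates with the same number share a plant or day, so the fit has no block. P values set a mean difference against the spread between the samples within the 4 groups. The fit was tested on simulated data. Names are *Arabidopsis* homologs from the study's lists of differing transcripts. Its hormone lists pair some of the same probe sets with other loci. Those named are the 6 probe sets, the 3 transcripts most correlated with each over all transcripts and over named ones, and the study's auxin and jasmonic acid lists. The members and lists were chosen with earlier results of these data known. The alternatives were a replicate block, a further quantile normalization, centring each array on its median or on hybridization controls, the 6 arrays of a stage alone, the unpaired test of the methods, an adjusted p of 0.05, a fold of 3, likeness over 4 group means, and leaving out each array.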

Additional observations from a re-analysis of the deposited data

Results flagged for a closer look

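For 4 of the 6 probe sets every 10 dpa array lay above the 0 dpa arrays in *FL* and below them in *Fl*. That order was found for 1.87% of all transcripts, and the rule that chose the 6 favours it. The difference between the lines at 10 dpa minus that at 0 dpa was -3.05 for MYB108, -2.48 for bHLH32, -3.30 for PLATZ _s_at and -2.49 for PLATZ _x_at. For both PLATZ probe sets the lines also stood in opposite order at the stages, *Fl* above at 0 dpa and below at 10 dpa, an order found for 3.39% of all transcripts. The line differences at 10 dpa, and their change from 0 dpa, were not tested, because the 10 dpa arrays had chosen the transcripts. The PLATZ differences at 0 dpa were tested, as given above. Groups of 3 arrays are too small to look for a single deviating array.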

How the results depend on the processing

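For the 4 probe sets not called at 0 dpa, 3 arrays a group set no tighter limit on a difference than the intervals given above. No filter on dim probe sets could be run on centred values. Centring on hybridization controls moved the median of all transcripts to 0.71 at 0 dpa and left 93.7% of them called, and the 0 dpa differences became 0.77 (IAA14, Ghi), 0.12 (IAA14, GhiAffx, turned in sign, adjusted p = 0.46), 1.00 (MYB108) and 0.73 (bHLH32, turned in sign), so that 5 probe sets were called higher. In the order IAA14 (Ghi and GhiAffx), MYB108, bHLH32 and PLATZ (_s_at and _x_at), this centring gave stage differences of 3.64, 5.51, 2.62, 2.57, 2.72 and 1.86 in *FL* and of -0.26, 3.92, -1.03, -0.50, -1.17 and -1.22 in *Fl*. It gave 10 dpa line differences of -3.13, -1.47, -2.35, -2.72 and -1.55, MYB108 left out. In the same order of 6, a further quantile normalization gave 10 dpa line differences of -2.09, -0.23, -2.12, -1.62, -2.11 and -1.41 and *FL* stage differences of 2.14, 3.81, 1.51, 1.38, 1.55 and 1.16, with -1.04 and -1.13 for PLATZ in *Fl*. The further normalization was run on centred values and can itself narrow the differences of a group set apart from the rest. The cause of these shifts was not tested.

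The 0 dpa difference of 0.44 of PLATZ _s_at was no longer called on the 6 arrays of 0 dpa alone (adjusted p = 0.0305). There 1 probe set was called higher, and 5.81% of all transcripts were called. In the unpaired test of the methods PLATZ _s_at missed too (0.115), as did the 0.80 of PLATZ _x_at (0.0174). That test called 0 of the 6 and 1.53% of all transcripts. In the main limma fit with a fold of 3 as well, 0 were called, and at an adjusted p of 0.05, 1 was lower (10.8% of all transcripts). The deviations of same-numbered arrays from their group means correlated weakly (r of -0.20 to 0.08). With groups this small, such values cannot tell whether the numbers pair the samples. The replicate block gave 1 probe set higher, with PLATZ _s_at at 0.44 and an adjusted p of 0.0138, and 1695 in place of 2222 calls over all transcripts.

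Over the fits that each left out 1 array, in the order of 6, the 0 dpa differences ranged from -0.01 to 0.10, -0.74 to -0.46, 0.13 to 0.41, -0.06 to 0.04, 0.36 to 0.52 and 0.75 to 0.86, with 1 to 2 called higher and 0 to 1 lower. Those of 10 dpa ranged from -3.36 to -3.19, -1.66 to -1.54, -2.90 to -2.66, -2.51 to -2.44, -2.92 to -2.82 and -1.76 to -1.61. Stage differences ranged from 3.26 to 3.37, 5.05 to 5.33, 2.15 to 2.43, 2.20 to 2.28, 2.31 to 2.44 and 1.44 to 1.59 in *FL*, and from -0.10 to 0.08, 4.04 to 4.28, -0.88 to -0.65, -0.28 to -0.19, -0.997 to -0.84 and -1.01 to -0.93 in *Fl*. Ranked over the 4 group means, 1 of the 3 nearest transcripts was shared for bHLH32 and 0 for the other 5 probe sets.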
